A study of Rattus norvegicus with 2 samples.

Results

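Genes of the tumour necrosis factor (TNF) ligand and receptor superfamily were mapped over the leukocytes of infarcted rat hearts. The set was every symbol of the deposited gene list that begins with Tnfsf or Tnfrsf and a number, together with Tnf, Lta, Ltb, Cd40, Cd40lg, Cd27, Cd70, Fas and Faslg, less 3 receptors that were left out. This gave 34 genes of 26976 symbols, 17 ligands and 17 receptors, and each had at least 1 UMI, the tag that marks a captured transcript molecule. Wild-type rats of the group MI+PUR-hAESC had a myocardial infarction (MI) and a patch of human amniotic epithelial stem cells (hAESC) on an antioxidant polyurethane scaffold (PUR), placed on the outer surface of the heart. Rats of the group MI had the infarction without the patch. The study asked how the patch affects immune cells of the heart. Each group was 1 sample of CD45+ leukocytes, sorted 1 week after surgery from digested left ventricles that held the infarct and its surroundings. How many rats were pooled in a sample is not stated. The cells of both samples stand in a single matrix as library 2 and library 1, and no file ties a library to a group, so no difference between libraries is read as an effect of the treatment.

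Ligands of this superfamily are mostly trimeric proteins of the cell membrane, some of them cut off by proteases, and they bind receptors on other cells. Receptors with a death domain, such as Fas and TNF receptor 1, can lead to caspase-8 through adaptor proteins. Many others bind TRAF adaptors and feed the NF-kB pathway. Among leukocytes the family is known for costimulation of T cells, T-cell help to B cells, B-cell survival and the killing of target cells.

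Library 2 held 15666 barcodes with a median of 4367.5 UMIs, and library 1 held 14283 with a median of 3692. Filters left 14434 cells (library 2) and 13334 cells (library 1). Ptprc, the gene for CD45, had a UMI in 92.9% of those in library 2 and 90.9% of those in library 1. The libraries shared 71 barcode sequences. Cells were placed in types by the number of distinct marker transcripts they held, no member among the markers, and 1336 (library 2) and 1304 (library 1) cells that met several definitions were set aside. The 7 types with at least 100 cells in each library were T-like, with 3275 cells in library 2 and 2112 in library 1, NK-like, with 1949 cells in library 2 and 1210 in library 1, B-like, with 1796 cells in library 2 and 845 in library 1, macrophage-like, with 1550 cells in library 2 and 1781 in library 1, neutrophil-like, with 1547 cells in library 2 and 3779 in library 1, non-classical monocyte-like, with 798 cells in library 2 and 350 in library 1, and monocyte-like, with 216 cells in library 2 and 488 in library 1. The monocyte-like type rests on 3 markers that stood out, and 376 of its cells met its definition with no marker to spare. T-like cells with a UMI of Rag1, Rag2, Dntt or Ptcra, genes of developing lymphocytes, were kept apart as Rag1-positive cells and are described for library 2, which held 848. A level is given in CPM, the UMIs of a gene per 1000000 UMIs of all cells of that type and library, with exact 95% Poisson intervals in parentheses that cover counting error alone. There was 1 library on each side, so no test between libraries was possible. Levels are compared for one gene across cells and never between genes, as they are not scaled by transcript length. A lower level in a type cannot be told apart from fewer cells of that type using the gene, which is why shares of cells are also given.

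RefSeq (rat build GRCr8) lists all 34 members by symbol, and its promoter table holds a window of 300 bases, 250 before the transcription start and 50 from it on, for 26 of them. The windows below are those of 4 members whose highest of the 7 types described below differed, Faslg with NK-like, Tnfrsf13b with B-like, Tnfrsf1a with neutrophil-like and Tnfsf13 with non-classical monocyte-like cells. They run 5′ to 3′ on the strand of the gene, and capitals mark a match to GGGANNNNCC, a motif of the NF-kB kind, on either strand.
Faslg, chr13:76695454-76695753, minus strand: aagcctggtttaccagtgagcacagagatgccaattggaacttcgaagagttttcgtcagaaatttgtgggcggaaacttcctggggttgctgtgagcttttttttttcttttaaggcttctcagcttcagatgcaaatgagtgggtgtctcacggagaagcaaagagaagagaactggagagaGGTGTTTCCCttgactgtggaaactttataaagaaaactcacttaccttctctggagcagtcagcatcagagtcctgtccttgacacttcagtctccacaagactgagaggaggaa
Tnfrsf13b, chr10:46301086-46301385, plus strand: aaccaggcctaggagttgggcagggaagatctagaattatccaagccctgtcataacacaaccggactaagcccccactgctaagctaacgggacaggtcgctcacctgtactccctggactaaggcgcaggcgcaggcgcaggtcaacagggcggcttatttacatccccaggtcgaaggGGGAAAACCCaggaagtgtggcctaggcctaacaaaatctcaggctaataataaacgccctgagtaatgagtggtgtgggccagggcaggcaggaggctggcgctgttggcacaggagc
Tnfrsf1a, chr4:159836869-159837168, plus strand: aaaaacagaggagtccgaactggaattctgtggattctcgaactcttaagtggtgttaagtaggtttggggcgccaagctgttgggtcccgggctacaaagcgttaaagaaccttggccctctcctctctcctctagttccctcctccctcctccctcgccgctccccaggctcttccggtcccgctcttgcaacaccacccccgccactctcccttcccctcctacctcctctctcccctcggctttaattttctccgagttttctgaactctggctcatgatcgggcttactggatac
Tnfsf13, chr10:54901766-54902065, minus strand: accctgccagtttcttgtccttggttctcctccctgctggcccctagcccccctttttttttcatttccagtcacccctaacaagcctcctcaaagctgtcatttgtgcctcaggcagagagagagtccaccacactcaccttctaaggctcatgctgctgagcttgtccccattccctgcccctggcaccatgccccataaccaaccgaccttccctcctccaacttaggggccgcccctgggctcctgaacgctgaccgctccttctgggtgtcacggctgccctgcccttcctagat
The motif was found in the windows of 9 of 26 members (34.6%), namely Cd70, Fas, Faslg, Lta, Ltb, Tnf, Tnfrsf13b, Tnfrsf8 and Tnfsf14, and in 19.6% of 27457 rat windows of that length. Its first base lay at position -66 from the start in Faslg and -69 in Tnfrsf13b. These letters are no measured binding site. In RefSeq order 14 members were direct neighbours of another member, among them Lta, Tnf and Ltb on chromosome 20, Tnfsf4, Tnfsf18 and Faslg on chromosome 13, and Tnfsf13 and Tnfsf12 on chromosome 10.

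Of the 34 members, 18 reached 50 CPM with 20 UMIs or more in a type of at least 100 cells, 6 ligands and 12 receptors. Over the 7 types, 16 members had 50 CPM or more, and 15 of the 16 had the same highest type in library 2 and library 1, as did 79.8% of all genes at that level. The exception was Tnfrsf14, highest in T-like cells of library 2 and in NK-like cells of library 1. In both libraries 7 of the 16 had one leading type at least 2-fold over the next, which held for 13% of 4948 genes at 50 CPM. These were Cd40, Tnfrsf13b, Tnfrsf13c and Tnfrsf26 in B-like cells, Cd40lg in T-like cells, Tnfsf10 in NK-like cells and Tnfrsf11a in macrophage-like cells. Types and levels come from the same cells, so the map is a description with no test.

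**Figure D1:**
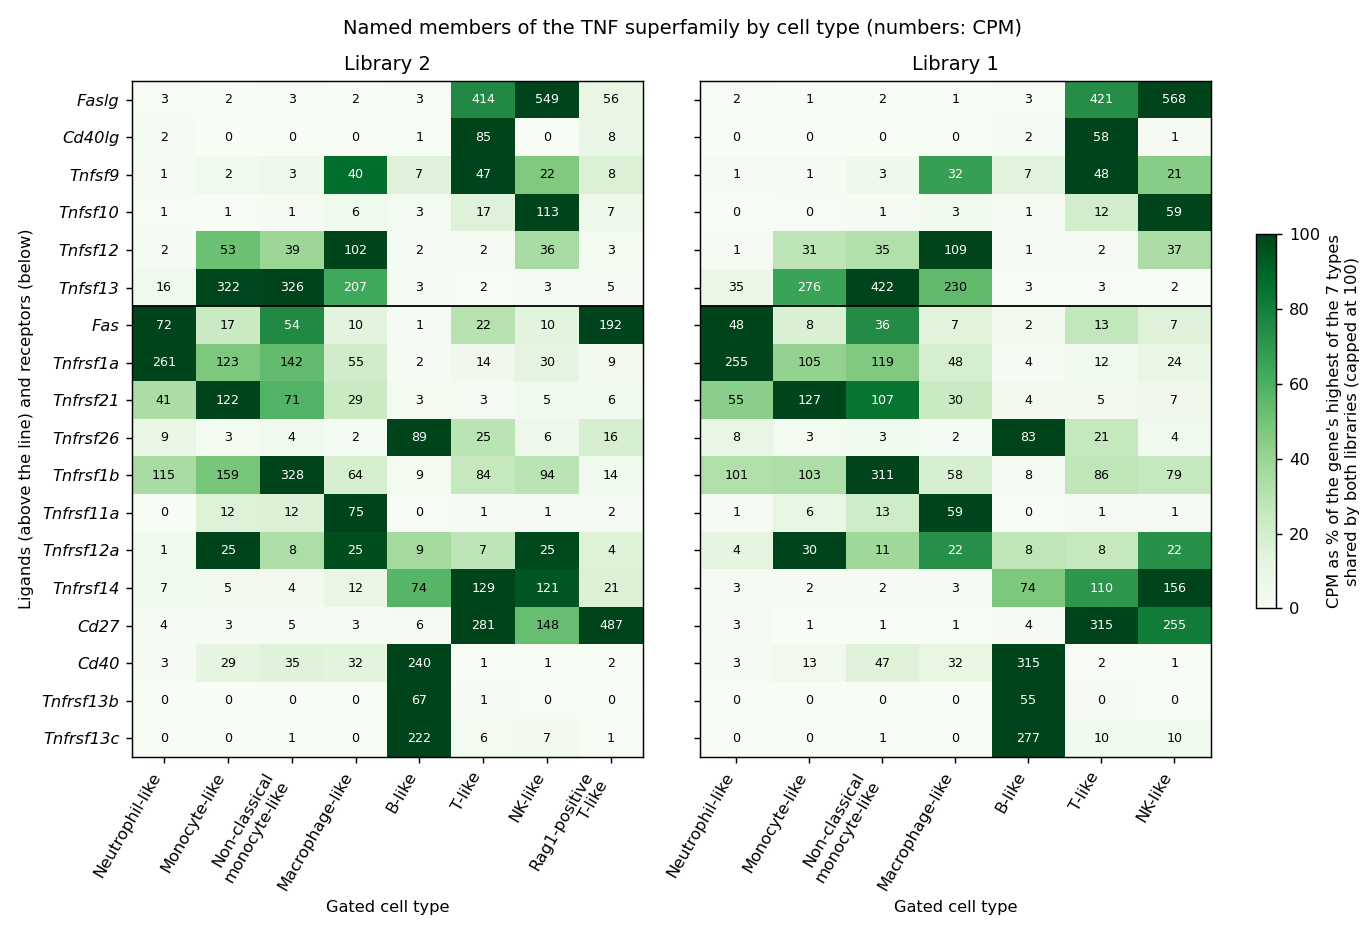
CPM of the 18 members that reached 50 CPM in a type of at least 100 cells, by gated cell type (columns). Library 2 is on the left and library 1 on the right. Colour is the CPM as a percent of that gene's highest of the 7 types shared by both libraries. Most genes are darkest in the same column of both panels, such as Faslg in NK-like cells at 549 CPM (library 2) and 568 CPM (library 1), and Cd40 in B-like cells at 239.5 CPM (library 2) and 315 CPM (library 1).

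Faslg, the ligand that triggers death through Fas, was found in NK-like and T-like cells. NK-like cells had 549 CPM in library 2 (534 to 564) against 568 CPM in library 1 (549 to 588). T-like cells had 414 CPM (library 2) and 421 CPM (library 1). Among T-like cells the ligand was highest in those with UMIs of Ccl5 and of Cd8a or Cd8b, called Ccl5 CD8 T-like (1655 cells in library 2 and 938 in library 1), at 637 CPM (library 2) and 601 CPM (library 1). Naive-like T cells, defined by at least 2 markers of naive T cells, such as Lef1, S1pr1 and Ccr7, and no Ccl5, had 47.3 CPM (library 2) and 35.6 CPM (library 1). T-like cells outside the named subsets had 260.02 CPM (library 2) and 449 CPM (library 1). In the remaining 5 of the 7 types Faslg was at most 3.41 CPM. Shares of cells are given with cells thinned to 1500 UMIs each, and cells with fewer UMIs left out. This left out 26 (library 2) and 20 (library 1) NK-like, 45 (library 2) and 36 (library 1) B-like, 44 (library 2) and 12 (library 1) T-like and 105 (library 2) and 237 (library 1) neutrophil-like cells. Of the NK-like cells thinned, 49.7% (library 2) and 53.2% (library 1) had a Faslg UMI, against 0.685% (library 2) and 0.247% (library 1) of B-like cells, which should lack it. Unthinned, the NK-like shares were 79.5% (library 2) and 77.9% (library 1), at median depths of 4722 UMIs (library 2) and 4346 UMIs (library 1), while B-like cells had 2781 UMIs (library 2) and 2878 UMIs (library 1).

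Fas, the death receptor that Faslg binds, was highest of the 7 types in neutrophil-like cells, with 71.8 CPM in library 2 (64.6 to 79.7) against 48.1 CPM in library 1 (43.7 to 52.9). Non-classical monocyte-like cells followed with 54.3 CPM (library 2) and 35.99 CPM (library 1), and B-like cells were lowest with 0.568 CPM (library 2) and 1.58 CPM (library 1). The Rag1-positive cells of library 2 exceeded all of these at 192 CPM. Thinning left out 278 of these 848 cells, and 27.02% of the 570 others had a Fas UMI, while 36.9% of all 848 had one unthinned. Fas was higher in library 2 in 6 of the 7 types, all but B-like cells. The intervals of the libraries were apart only in neutrophil-like, non-classical monocyte-like and T-like cells. They overlapped in macrophage-like cells, at 9.8 CPM (library 2) and 6.6 CPM (library 1), and in B-like cells. They also overlapped in monocyte-like cells, at 17.1 CPM (library 2) and 8.23 CPM (library 1). In NK-like cells, at 9.59 CPM (library 2) and 7.15 CPM (library 1), they overlapped as well. The log2 ratio, taken as library 2 over library 1 of CPM plus 10, was 0.49 in neutrophil-like, 0.48 in non-classical monocyte-like and 0.48 in T-like cells, below 2-fold in each. Neutrophil-like cells fell into 2 Leiden clusters in different shares, cluster 4 with 74.7% (library 2) and 17.6% (library 1) and cluster 0 with 24.8% (library 2) and 82.1% (library 1). Fas was higher in library 2 within both, at 71.5 CPM (library 2) and 41.9 CPM (library 1) in cluster 4 and at 75.01 CPM (library 2) and 49.8 CPM (library 1) in cluster 0. Rag1 was at 999 CPM and Dntt at 719 CPM in the Rag1-positive cells. In the 7 types of library 2 Rag1 was at most 1.14 CPM, with none in T-like cells by their definition. Dntt reached 51.2 CPM (library 2) and 17.4 CPM (library 1) in non-classical monocyte-like cells. The part of transcripts from Rag1-positive cells in the Fas levels was not tested.

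Cd40lg, through which helper T cells act on Cd40 of B cells, dendritic cells and macrophages, was at 84.9 CPM in library 2 (80.7 to 89.2) against 57.9 CPM in library 1 (53.6 to 62.5) in T-like cells. The 6 other types had at most 1.61 CPM in either library. Naive-like T cells were the highest T-like subset with 161 CPM (library 2) and 156 CPM (library 1), and the intervals of the libraries overlapped there. T-like cells with a Cd4 UMI and none of Cd8a or Cd8b had 185 CPM (library 2) and 119 CPM (library 1). Cd40 was highest in B-like cells, with 239.5 CPM in library 2 (227 to 253) against 315 CPM in library 1 (294 to 338). Conventional dendritic-like cells, 86 (library 2) and 110 (library 1) in number, had 57.3 CPM (library 2) and 71.2 CPM (library 1) of Cd40. Macrophage-like cells had 32.3 CPM (library 2) and 32.2 CPM (library 1), non-classical monocyte-like cells 35.5 CPM (library 2) and 46.8 CPM (library 1), and T-like cells 0.713 CPM (library 2) and 2.02 CPM (library 1). Monocyte-like cells had 28.7 CPM (library 2) and 12.8 CPM (library 1), a log2 ratio of 0.77. After thinning 29.1% (library 2) and 37.1% (library 1) of B-like cells had a Cd40 UMI, against 0.0929% (library 2) and 0.238% (library 1) of T-like cells; unthinned B-like shares were 45.3% (library 2) and 55.3% (library 1).

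**Figure D2:**
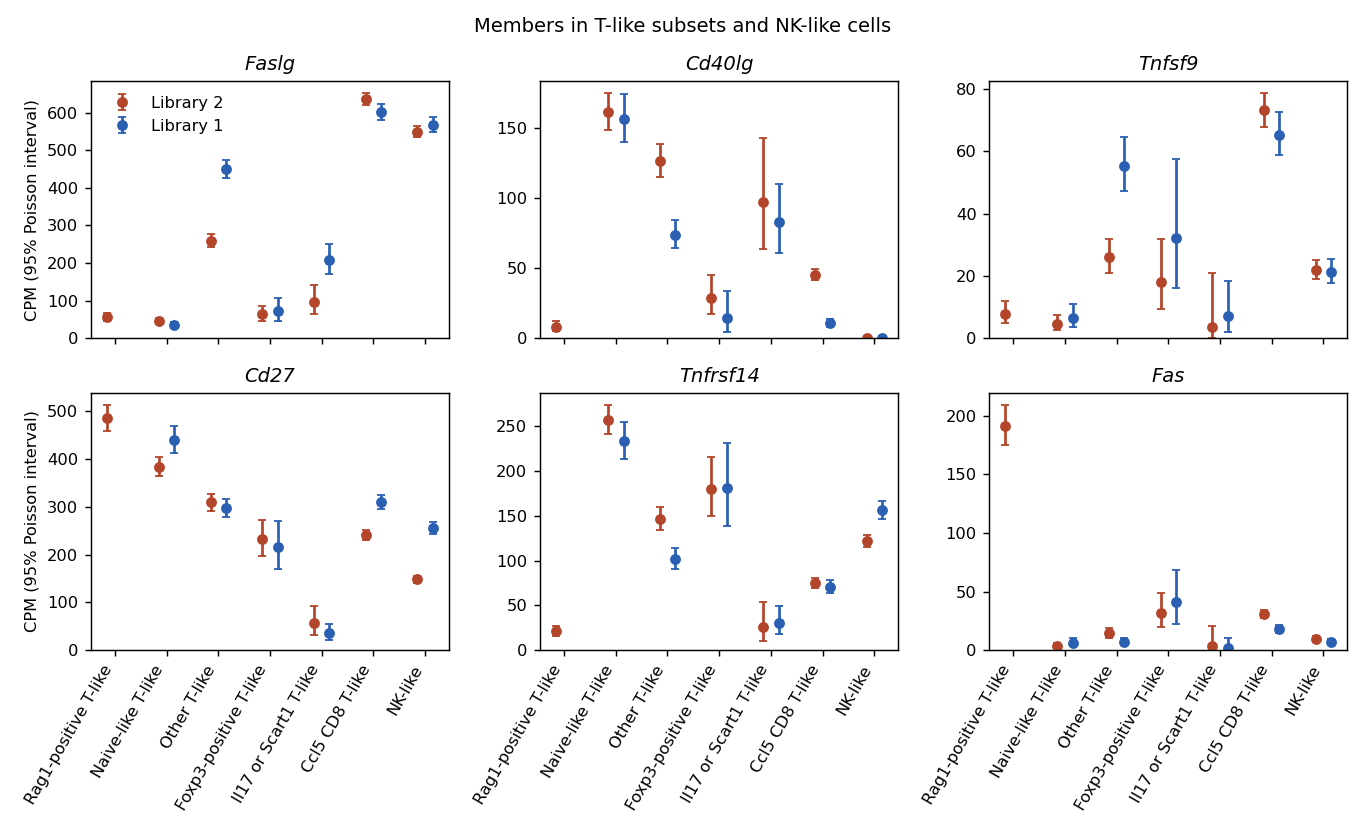
CPM with exact 95% Poisson intervals of 6 members in T-like subsets and NK-like cells, with library 2 in red and library 1 in blue; groups of fewer than 30 cells are left out, which removes Rag1-positive cells of library 1. Among T-like subsets Faslg was highest in Ccl5 CD8 T-like cells at 637 CPM (library 2) and 601 CPM (library 1), and Cd40lg in naive-like cells at 161 CPM (library 2) and 156 CPM (library 1); Fas was highest in Rag1-positive cells at 192 CPM.

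Leaving aside the split of T-like cells by Cd4 and Cd8 UMIs, the types and T-like subsets with at least 100 cells in each library were compared. Among them 1 member in 1 of them was past 2-fold between libraries, Cd40lg in Ccl5 CD8 T-like cells. It had 45.3 CPM in library 2 (41.2 to 49.7) against 10.8 CPM in library 1 (8.19 to 13.95), from 452 UMIs in library 2 and 58 UMIs in library 1, a log2 ratio of 1.41. Of the 8 members at 20 CPM in these cells, 1 was past 2-fold higher in library 2 and 0 higher in library 1, beside 0.187% of 5353 genes higher in library 2 and 0.28% higher in library 1. A Cd40lg UMI was found in 15.2% (library 2) and 3.52% (library 1) of the cells. After thinning the shares were 5.38% (library 2) and 1.07% (library 1), against 0.0571% (library 2) and 0.247% (library 1) in B-like cells. Narrower definitions gave like values. Cells with at least 3 UMIs of Cd8a and Cd8b and none of Cd4 had 42.5 CPM (library 2) and 7.7 CPM (library 1). Cd4 itself was at 5.61 CPM (library 2) and 10.05 CPM (library 1) in the whole subset. In the split left aside, made for some members only, Tnfsf9 was past 2-fold in T-like cells with a Cd4 UMI and no Cd8 UMI. It was at 12.02 CPM in library 2 (7.54 to 18.2) against 45.01 CPM in library 1 (34.6 to 57.6), a log2 ratio of -1.32. Those cells were 328 (library 2) and 250 (library 1) in number. Cd40lg was past 2-fold in T-like cells with a Cd8 UMI and no Cd4 UMI, at 42.4 CPM (library 2) and 12.9 CPM (library 1).

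By Leiden cluster, Cd40lg in Ccl5 CD8 T-like cells was at 50.5 CPM (library 2) and 9.56 CPM (library 1) in cluster 2, which held 1210 (library 2) and 754 (library 1) of them, with intervals apart. In cluster 15, led by the division genes Mki67 and Top2a, it was at 45.5 CPM (library 2) and 23.9 CPM (library 1), with intervals that overlapped. In cluster 16, with 106 (library 2) and 71 (library 1) cells of the subset, it was at 13.9 CPM in library 2 (6.64 to 25.5). Library 1 had 0 CPM there (0 to 7.84), and these intervals overlapped too. Of 12 macrophage marker genes, 9 were lower and 3, C1qa, C1qc and Adgre1, higher in library 2 in the same subset, and their sum was at 54.9 CPM (library 2) and 68.3 CPM (library 1). Cd163 had 0 UMIs (library 2) and 2 UMIs (library 1). Outside that list, and chosen after their values were seen, Apoe was at 114 CPM (library 2) and 264 CPM (library 1) and Spp1 at 9.52 CPM (library 2) and 176 CPM (library 1). The part of these transcripts in the result was not tested. Types were also taken from whole clusters, which adds cells outside the subset, T-like or not, and drops its cells in other clusters. Cd40lg was then at 47.2 CPM (library 2) and 20.7 CPM (library 1), a log2 ratio of 0.90, short of 2-fold.

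**Figure D3:**
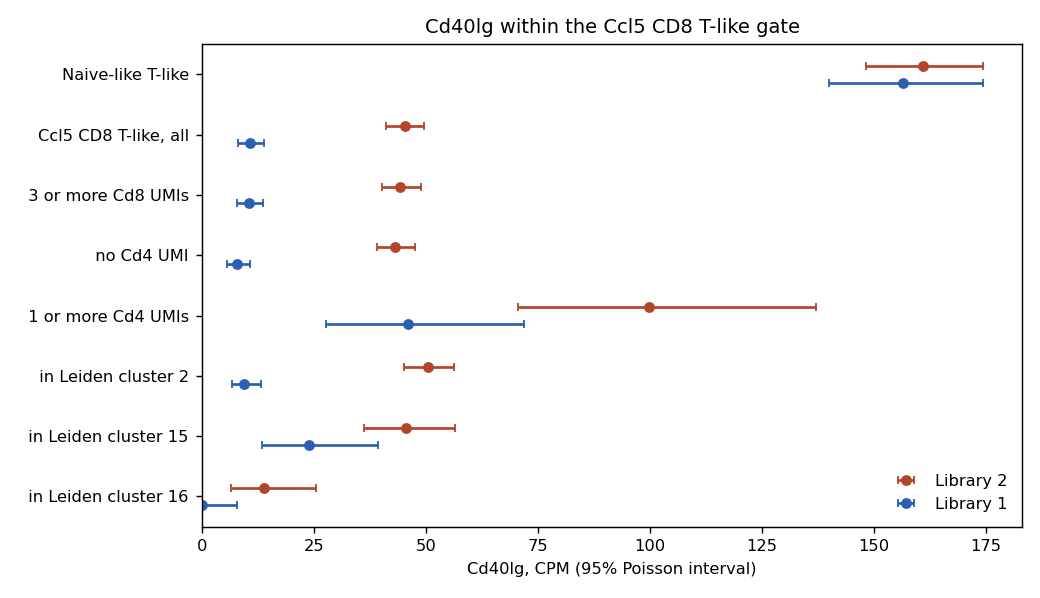
Cd40lg CPM with exact 95% Poisson intervals in naive-like T cells, in Ccl5 CD8 T-like cells and in parts of that subset, library 2 above library 1. All cells of the subset stand at 45.3 CPM (library 2) and 10.8 CPM (library 1), while the intervals of naive-like T cells overlap.

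Cd27, a costimulatory receptor of T and NK cells that binds Cd70, was at 281 CPM (library 2) and 315 CPM (library 1) in T-like cells. Rag1-positive cells of library 2 had 487 CPM. NK-like cells had 148 CPM in library 2 (141 to 156) against 255 CPM in library 1 (242 to 269), a log2 ratio of -0.74. The lower level in library 2 was also found within NK clusters, at 190.4 CPM (library 2) and 296 CPM (library 1) in cluster 5 and 78.4 CPM (library 2) and 128 CPM (library 1) in cluster 10, with intervals apart in both. In cluster 18 the values were 129 CPM (library 2) and 171 CPM (library 1), and their intervals overlapped. The ligand Cd70 had 34 UMIs (library 2) and 31 UMIs (library 1) in all cells.

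Tnfrsf14, the receptor of Tnfsf14 that also binds BTLA, was at 129 CPM (library 2) and 110.2 CPM (library 1) in T-like cells and 121 CPM (library 2) and 156 CPM (library 1) in NK-like cells. Naive-like cells were its highest T-like subset with 257 CPM (library 2) and 233 CPM (library 1). Tnfsf9, the costimulatory ligand also called 4-1BB ligand, was at 73.1 CPM (library 2) and 65.3 CPM (library 1) in Ccl5 CD8 T-like cells, at 4.65 CPM (library 2) and 6.65 CPM (library 1) in naive-like T cells and at 40.4 CPM (library 2) and 32.1 CPM (library 1) in macrophage-like cells.

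Tnfsf10 (TRAIL), a death ligand, was highest of the 7 types in NK-like cells, with 113 CPM in library 2 (106 to 119.6) against 59.1 CPM in library 1 (52.9 to 65.9) and a log2 ratio of 0.83. Endothelial-like cells, 35 (library 2) and 113 (library 1) in number, were above them with 191 CPM in library 2 (146 to 245) against 86.97 CPM in library 1 (69.7 to 107). The makeup of the NK-like cells differed between libraries. Cluster 10, led by Ccl1, Fcrl6 and Xcl1 among other genes, held 685 NK-like cells in library 2 and 110 in library 1, and cluster 5 held 956 (library 2) and 815 (library 1). Within cluster 10 Tnfsf10 was at 218 CPM (library 2) and 193 CPM (library 1), and within cluster 5 at 61.5 CPM (library 2) and 55.4 CPM (library 1), with overlapping intervals in each. Lta, or lymphotoxin alpha, was at 37.4 CPM (library 2) and 23.2 CPM (library 1) in cluster 10 and 6.19 CPM (library 2) and 5.54 CPM (library 1) in cluster 5. Of the receptors of Tnfsf10, Tnfrsf10b was not among the symbols of the gene list and could not be measured. The decoy Tnfrsf11b had 21 UMIs (library 2) and 27 UMIs (library 1).

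B-like cells carried the receptors of the B-cell survival ligands. Tnfrsf13c, the receptor of Tnfsf13b (BAFF), had 222 CPM in library 2 (209.9 to 236) against 277 CPM in library 1 (257 to 298), and at most 10.4 CPM in the 6 other types. Tnfrsf13b (TACI), which binds Tnfsf13b and Tnfsf13 (APRIL), had 67.2 CPM in library 2 (60.4 to 74.6) against 55.2 CPM in library 1 (46.4 to 65.1), and at most 0.659 CPM elsewhere among the 7 types. Tnfrsf17, the plasma-cell receptor of the same ligands, had 38 UMIs (library 2) and 6 UMIs (library 1). Tnfrsf26 was at 89 CPM (library 2) and 83.1 CPM (library 1) in B-like cells and at 72.8 CPM (library 2) and 68.4 CPM (library 1) in naive-like T cells.

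The ligands of these receptors were myeloid. Tnfsf13 was highest in non-classical monocyte-like cells, with 326 CPM in library 2 (307 to 345) against 422 CPM in library 1 (392 to 455). Monocyte-like cells had 322 CPM (library 2) and 276 CPM (library 1) and macrophage-like cells 207 CPM (library 2) and 229.7 CPM (library 1), while B-like, T-like and NK-like cells had at most 3.08 CPM. In neutrophil-like cells it was at 16.5 CPM (library 2) and 34.8 CPM (library 1), a log2 ratio of -0.76, and at 13.96 CPM (library 2) and 23.5 CPM (library 1) in cluster 4 and 26.96 CPM (library 2) and 34.98 CPM (library 1) in cluster 0, where the intervals overlapped. Tnfsf13b was highest in macrophage-like cells, with 37.3 CPM in library 2 (33.6 to 41.3) against 21.1 CPM in library 1 (18.6 to 23.8). Their main cluster, led by C1qa, C1qc and C1qb, had 41.9 CPM (library 2) and 24.2 CPM (library 1) of it.

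The receptors of Tnf differed in their spread over the types. Tnfrsf1a, the TNF receptor with a death domain, was highest in neutrophil-like cells, with 261 CPM in library 2 (247 to 276) against 255 CPM in library 1 (245 to 266). It was at 142 CPM (library 2) and 119 CPM (library 1) in non-classical monocyte-like, 123 CPM (library 2) and 105 CPM (library 1) in monocyte-like and 55.2 CPM (library 2) and 47.96 CPM (library 1) in macrophage-like cells. After thinning 31% (library 2) and 31.1% (library 1) of neutrophil-like cells had a UMI of it, against 0.4% (library 2) and 0.371% (library 1) of B-like cells. Unthinned neutrophil-like shares were 52.5% (library 2) and 43.1% (library 1). Tnfrsf1b, the TNF receptor without a death domain, was highest in non-classical monocyte-like cells, with 328 CPM in library 2 (309.5 to 347) against 311 CPM in library 1 (285 to 339), followed by monocyte-like cells at 159 CPM (library 2) and 103 CPM (library 1) and neutrophil-like cells at 115 CPM (library 2) and 101 CPM (library 1). It was also at 94.3 CPM (library 2) and 78.8 CPM (library 1) in NK-like and 83.6 CPM (library 2) and 86.05 CPM (library 1) in T-like cells, above macrophage-like cells at 63.7 CPM (library 2) and 58.02 CPM (library 1). Tnf itself had 11 UMIs (library 2) and 22 UMIs (library 1) in all cells, and Ltb 5 UMIs (library 2) and 2 UMIs (library 1), too few to place their source. Tnfrsf21, also called death receptor 6, was highest in monocyte-like cells at 122 CPM (library 2) and 127 CPM (library 1). Non-classical monocyte-like cells had 71.2 CPM (library 2) and 107 CPM (library 1), and the intervals of these types overlapped in library 1.

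Of the 7 types, macrophage-like cells were highest for Tnfrsf11a and Tnfsf12. Tnfrsf11a (RANK), the receptor that drives osteoclast formation, had 74.8 CPM in library 2 (69.5 to 80.4) against 58.6 CPM in library 1 (54.4 to 62.99), and at most 12.6 CPM in the 6 other types. Its ligand Tnfsf11 had 1 UMI (library 2) and 0 UMIs (library 1), and 0 of 13334 cells allows a share of up to 0.0225%. Tnfsf12 (TWEAK) was at 102 CPM (library 2) and 109 CPM (library 1) in macrophage-like cells, and at 200.2 CPM (library 2) and 102 CPM (library 1) in endothelial-like cells. Its receptor Tnfrsf12a was at 25.3 CPM (library 2) and 30.1 CPM (library 1) in monocyte-like cells. NK-like cells were close, at 24.8 CPM (library 2) and 21.8 CPM (library 1). So were macrophage-like cells, at 24.6 CPM (library 2) and 21.9 CPM (library 1). In endothelial-like cells, 35 (library 2) and 113 (library 1) in number, Tnfrsf12a was at 50.8 CPM (library 2) and 62.98 CPM (library 1). RefSeq lists Eif4a1l as overlapping Tnfsf12 and Tnfsf13, and other genes as overlapping Cd27, Fas, Tnfsf10 and Tnfrsf1b, so the reads of these members may include some of their neighbours and their levels are uncertain to that extent.

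The 16 members that did not reach 50 CPM were 11 ligands and 5 receptors, and 9 of them had fewer than 100 UMIs in all. Tnfsf8 was highest in NK-like cells at 16.96 CPM (library 2) and 14.8 CPM (library 1), with T-like cells at 13.7 CPM (library 2) and 11.6 CPM (library 1). Tnfsf14 was highest in neutrophil-like cells at 12.04 CPM (library 2) and 9.1 CPM (library 1). NK-like cells had 9.09 CPM (library 2) and 5.9 CPM (library 1) of Tnfsf14. For both genes the intervals of these types overlapped in each library. Tnfrsf25, a death-domain receptor of T cells that binds Tnfsf15, was singled out after its values were seen. It was at 236 CPM (library 2) and 95.2 CPM (library 1) in T-like cells with Il17a, Il17f, Il23r or Scart1, 37 (library 2) and 84 (library 1) in number, against 13.5 CPM (library 2) and 11.9 CPM (library 1) in all T-like cells.

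Between libraries, no member passed 2-fold in any of the 7 types. The counts at 20 CPM were, in neutrophil-like cells, 0 of 5 members, beside 1.23% of 3741 genes higher in library 2 and 1.2% higher in library 1. Macrophage-like cells had 0 of 10 members, beside 0.686% of 5390 genes higher in library 2 and 0.241% higher in library 1. Monocyte-like cells had 0 of 7 members, beside 1.77% of 5038 genes higher in library 2 and 1.09% higher in library 1. Non-classical monocyte-like cells had 0 of 7 members, beside 0.513% of 5267 genes higher in library 2 and 0.684% higher in library 1. For B-like cells the count was 0 of 5 members, beside 0.107% of 5606 genes higher in library 2 and 0.125% higher in library 1. For T-like cells it was 0 of 8 members, beside 0.113% of 5323 genes higher in library 2 and 0.207% higher in library 1. For NK-like cells it was 0 of 9 members, beside 0.414% of 5551 genes higher in library 2 and 0.234% higher in library 1. Counts of 0 in so few members are near these backgrounds and are no result about the family. The median log2 ratio of the members lay between -0.01 and 0.22 over the 7 types, and that of all genes between -0.10 and 0.06.

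**Figure D4:**
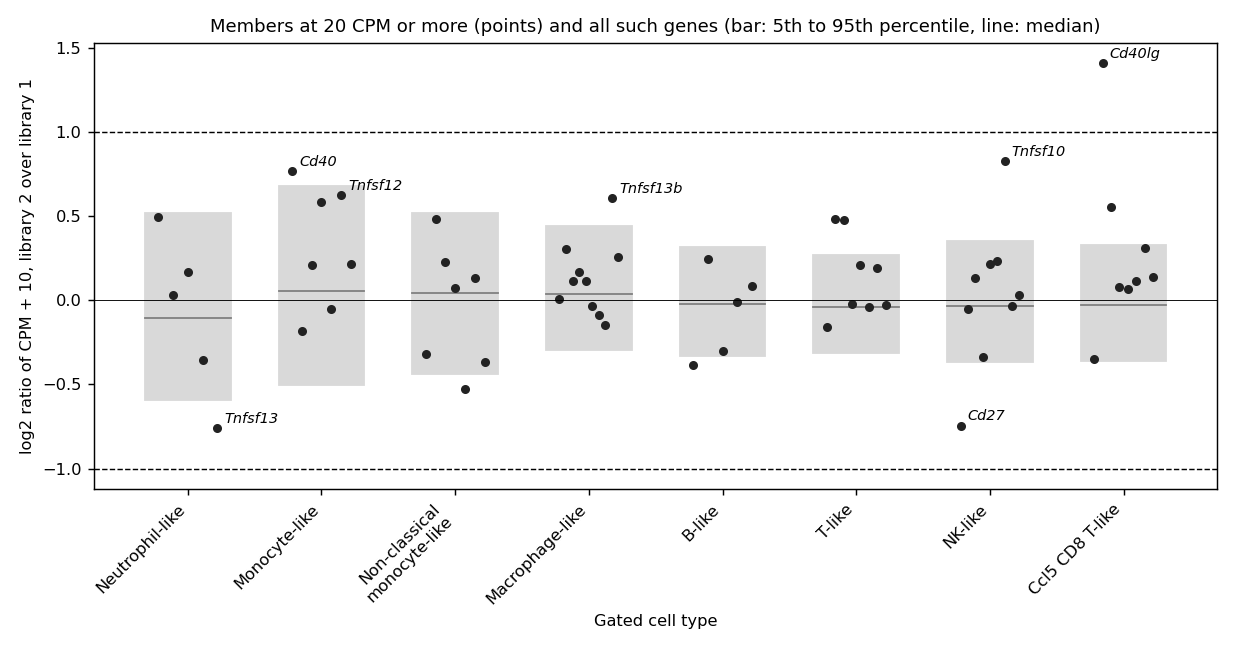
log2 ratio of CPM plus 10, library 2 over library 1, for members at 20 CPM or more (points, named from 0.6 in size) by cell type, over the 5th to 95th percentile of all such genes (grey) with their median; dashed lines mark 2-fold. Cd40lg in Ccl5 CD8 T-like cells, at 1.41, is the point outside the dashed lines.

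Other genes of the pathway were taken as 6 lists, and 5 genes passed 2-fold over the 7 types. In neutrophil-like cells 3 passed, 1 of 10 genes of the cell death arm and 2 of 18 NF-kB feedback and target genes, all lower in library 2, where 1.2% of all genes were. Bcl2a1, which opposes apoptosis, was at 1083 CPM (library 2) and 3278 CPM (library 1), a log2 ratio of -1.59. The chemokine Cxcl1 was at 45.8 CPM (library 2) and 198 CPM (library 1), log2 ratio -1.90, and the chemokine Cxcl2 at 5833 CPM (library 2) and 12825 CPM (library 1), log2 ratio -1.14. Within cluster 4 Cxcl2 was at 4502 CPM (library 2) and 4563 CPM (library 1) and Bcl2a1 at 906 CPM (library 2) and 1328 CPM (library 1). Within cluster 0 Cxcl2 was at 12490.2 CPM (library 2) and 14981 CPM (library 1) and Bcl2a1 at 1957 CPM (library 2) and 3783 CPM (library 1). None of these passed 2-fold within a cluster. In monocyte-like cells the protease Adam8, 1 of 4 tested of its list, was at 8.21 CPM (library 2) and 27.3 CPM (library 1). There 1.09% of 5038 genes were higher in library 1. In non-classical monocyte-like cells the NF-kB target Tnfaip2, 1 of 20 tested of its list, was at 22.2 CPM (library 2) and 6.0 CPM (library 1), where 0.513% of 5267 genes were higher in library 2. With TMM factors, DESeq2 size factors or a mitochondrial limit of 10%, 0 genes of the lists passed in non-classical monocyte-like cells. Macrophage-like, B-like, T-like and NK-like cells had 0 genes of the 6 lists past 2-fold.

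T-like cells were the type with the most cells. Of the cell death arm, Bcl2l11, which promotes apoptosis, was at 111 CPM (library 2) and 165 CPM (library 1), log2 ratio -0.53, and Bcl2, which opposes it, at 71.1 CPM (library 2) and 92.8 CPM (library 1), log2 ratio -0.34. Of the feedback genes, Tnfaip3, a brake on NF-kB, was at 122 CPM (library 2) and 147 CPM (library 1), log2 ratio -0.26, and Sod2, a mitochondrial antioxidant enzyme, at 81.8 CPM (library 2) and 104 CPM (library 1), log2 ratio -0.31. The adaptor Traf1 was at 172 CPM (library 2) and 147 CPM (library 1), log2 ratio 0.21, the NF-kB subunit Rel at 79.2 CPM (library 2) and 92.1 CPM (library 1), log2 ratio -0.19 and the protease Adam10, which sheds several membrane ligands, at 88.3 CPM (library 2) and 114 CPM (library 1), log2 ratio -0.34. Each of these lay well short of 2-fold. The median log2 ratio over the genes tested was -0.12 for the cell death arm and -0.09 for feedback and targets, beside -0.04 for all genes.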

How the data were processed

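The deposited values are raw UMI counts per gene and cell, which the authors made, per the file headers, using Cell Ranger 4.0.0, from a 10x Genomics Chromium library, per the labels' protocols. The genome build is not given in the sources used here. Both samples share 1 matrix, and 0 columns of per-sample values were left unused. Symbols on several lines (1453) were summed.

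Cells with fewer than 200 genes or over 20% mitochondrial UMIs were left out, as were doublets called per library by Scrublet in scanpy 1.11.5 (997 in library 2, 634 in library 1). Types came from marker counts per cell; clusters came from Leiden clustering at resolution 1 on 30 principal components of variable genes without members. UMIs were summed per type and library. A gene was counted past 2-fold at an absolute log2 ratio of CPM plus 10 of at least 1, among genes at 20 CPM in either library. The 2-fold call and the Poisson intervals were tested on simulated Poisson counts drawn from NK-like means and totals. Cell types, doublet calls, clusters and thinning were not part of that test.

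The members, gene lists and rules were chosen with earlier results of these data known. Every member with 50 CPM and 20 UMIs in a type of 100 cells is described, with every member past 2-fold in a type or T-like subset with 100 cells in each library. Of each pathway list, up to 4 genes with the largest ratio in T-like cells at 50 CPM could be named. Alternatives were TMM factors (edgeR 4.0.16), DESeq2 1.42.0 size factors, no CPM minimum, a pseudocount of 1 CPM, doublets kept, a mitochondrial limit of 10%, types from clusters, clusters weighted alike, and unthinned shares.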

Additional observations from a re-analysis of the deposited data

How the results depend on the processing

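The count of members past 2-fold was 0 in neutrophil-like and in monocyte-like cells and became 1 in each with a pseudocount of 1 CPM (Tnfsf13 and Cd40). It was 0 in T-like cells and became 1 (Fas) where Rag1-positive cells were counted as T-like. In Ccl5 CD8 T-like cells it was 1 and became 0 with types from Leiden clusters, where Cd40lg had a log2 ratio of 0.90; in the other settings run that ratio was 1.39 to 1.97. For other pathway genes, the count of 1 in non-classical monocyte-like cells became 0 with TMM factors, 0 with DESeq2 size factors, 0 with a mitochondrial limit of 10% and 2 with a pseudocount of 1 CPM. With types from Leiden clusters it became 2 in monocyte-like cells, against 1, and 1 in Ccl5 CD8 T-like cells, against 0. Among members at 50 CPM or more in the type, which leaves out the cases above, 10 of 395 recomputed log2 ratios moved by more than their counting error and 0 passed 2-fold. Of the 395, the 39 without a CPM minimum could not move, as that setting leaves the ratio unchanged. The moved ratios were 5 of 5 with Rag1-positive cells counted as T-like, 4 of 34 with clusters weighted alike and 1 of 39 with DESeq2 factors. Some ratios changed sign, 4 of 39 with TMM factors and 4 of 39 with DESeq2 factors. With types from Leiden clusters 4 of 39 did so, and with clusters weighted alike 3 of 34. All 36 shares moved without thinning. TMM factors shifted log2 ratios by 0.10 in neutrophil-like and -0.10 in monocyte-like cells and DESeq2 factors by 0.13 and -0.10, and by less than 0.1 in the other types. Alternatives on Rag1-positive cells, shared barcodes, Cd8 UMIs and an equal doublet limit were added after seeing the data. No paired analysis was possible because each group is 1 sample. Depth limits the members with few UMIs, whose source could not be placed.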

Other observations

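In Ccl5 CD8 T-like cells 25 genes of any kind were past 2-fold between libraries, 10 higher in library 2 and 15 higher in library 1. Beside Cd40lg, those higher in library 2 included Fam111a, at 143 CPM (library 2) and 11.2 CPM (library 1), the chemokine Ccl1, at 41.9 CPM (library 2) and 9.30 CPM (library 1), and the interferon-induced genes Isg15, at 239 CPM (library 2) and 109.8 CPM (library 1), and Irf7, at 93.6 CPM (library 2) and 37.8 CPM (library 1). These genes were chosen after their values were seen.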
